A study of Mus musculus with 8 samples.

Results

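The genes described here encode 10 peptide hormones of the gut, Cck, Sct, Gast, Sst, Ghrl, Pyy, Gcg, Nts, Gip and Vip, and were taken by symbol from the 23361 genes of the table. The set was chosen from the levels of these genes in the same cancers and controls, so that contrast is described for them and not tested. RNA was sequenced from 5 cancers of the gastric squamous-columnar junction (SCJ) and from the SCJ of 3 control stomachs. The cancers (Trp53-/-Rb1-/-) arose in mice with loxP-flanked alleles of Trp53 and of Rb1, the Ai9 tdTomato reporter and a tamoxifen-activated Cre (Lgr5 eGFP-Ires-CreERT2) made only in Lgr5+ cells, where it deletes both tumor suppressor genes. They were dissected from adult mice many months after tamoxifen, along the border of tdTomato signal, and the controls (wild type) came from age-paired mice. Deletion was therefore limited to descendants of Lgr5+ cells, whereas other cells in a tumor keep both genes, and the sex of the mice is not given in the sources used here. The controls are 3 stomachs, but the sources used here do not state whether each tumor is from a separate mouse, so p-values measure the spread between these libraries. Levels are in FPKM (sequenced fragments per kilobase of each transcript, relative to the fragments mapped), a length-scaled measure that permits comparison between genes, and the deposited values are rounded to whole numbers.

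Gut peptide hormones are made by enteroendocrine cells, single cells scattered in the epithelium that store peptides in granules and release them after a meal or during fasting. Each is translated as a longer precursor, cut by prohormone convertases and trimmed, and many are amidated, before release. In the normal mouse stomach ghrelin cells, somatostatin cells and, in the antrum, gastrin cells are the main peptide-producing types, whereas cholecystokinin, secretin, glucagon-like peptides, peptide YY, neurotensin and gastric inhibitory polypeptide are chiefly products of the intestine. Vasoactive intestinal peptide is mainly a transmitter of enteric neurons.

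The 250 bases before the transcription start of 4 of these genes are printed from RefSeq (GRCm38.p6, the assembly of mm10, to which the deposited loci refer), 5′ to 3′ on the strand of the gene. Cck and Gcg are shown as the pair with the highest means over the cancers, Gast as the gene found high in 1 cancer, and Sst as a gene abundant in both groups. Capitals mark matches, on either strand, to motifs of known transcription factors. CAGATG is a form of the E-box, the element that basic helix-loop-helix factors such as Neurod1 recognize. Another form, CAGCTG, was searched for as well. The cyclic AMP response element was searched for as TGACGTCA. The TATA box was searched for as TATAAA, which reads as the reverse complement TTTATA where it lies on the other strand. The GC box, GGGCGG, is absent from these 4 windows, and none of these motifs contains another.
Cck (chr9:121495695-121495944, minus strand): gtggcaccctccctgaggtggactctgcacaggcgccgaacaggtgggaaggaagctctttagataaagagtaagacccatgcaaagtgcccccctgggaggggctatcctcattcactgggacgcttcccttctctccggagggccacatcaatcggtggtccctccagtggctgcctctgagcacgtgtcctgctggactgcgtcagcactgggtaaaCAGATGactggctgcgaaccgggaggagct
Gcg (chr2:62483654-62483903, minus strand): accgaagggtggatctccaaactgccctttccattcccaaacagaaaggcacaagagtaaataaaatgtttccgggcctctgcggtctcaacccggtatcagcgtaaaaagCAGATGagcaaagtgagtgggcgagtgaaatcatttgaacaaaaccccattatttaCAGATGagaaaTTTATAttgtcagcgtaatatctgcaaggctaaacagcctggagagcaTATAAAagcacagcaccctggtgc
Gast (chr11:100334157-100334406, plus strand): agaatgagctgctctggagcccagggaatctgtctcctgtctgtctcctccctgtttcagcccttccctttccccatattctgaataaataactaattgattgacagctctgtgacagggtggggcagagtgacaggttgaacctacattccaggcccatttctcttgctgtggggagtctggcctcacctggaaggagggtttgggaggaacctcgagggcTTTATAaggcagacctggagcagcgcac
Sst (chr16:23890845-23891094, minus strand): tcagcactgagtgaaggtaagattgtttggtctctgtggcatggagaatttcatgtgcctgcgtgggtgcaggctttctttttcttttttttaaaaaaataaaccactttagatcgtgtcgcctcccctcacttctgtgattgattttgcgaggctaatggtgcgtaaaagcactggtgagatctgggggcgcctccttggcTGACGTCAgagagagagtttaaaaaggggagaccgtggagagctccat
The Cck window held CAGATG starting 30 bases before the start, and the Gcg window held it 139 and 83 bases before the start. CAGATG was present for 3 of the 10 genes (Cck, Gcg and Sct), and 14.4% of 32536 mouse promoter windows of this length held it. CAGCTG was present for 4 of the 10 (Ghrl, Gip, Nts and Sct; 13.1% of all windows). Only Sst held TGACGTCA, 48 bases before the start (1.56% of all windows). TATAAA was found for Gast, Gcg, Sct and Vip (12.3% of all windows), and GGGCGG for Sct (33.0%). Ghrl and Pyy have more than 1 RefSeq window here, and a gene was counted if any of its windows matched. The Sst window abuts the deposited locus, which ends at 23890844, but lies within the RefSeq span of the gene, which ends at 23891342.

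The libraries were first examined for the deleted genes and for other cell types. Trp53 was at 12, 22, 12, 30 and 12 FPKM in cancers 1 to 5 and at 16, 17 and 19 in the controls, and Rb1 at 4, 4, 5, 6 and 4 against 9, 9 and 10. Rb1 fell by 0.90 on the log2 scale (standard error 0.16, adjusted p = 0.0059 from limma), a difference that was lost after equalizing library sums (-0.054, adjusted p = 0.84 from limma), and the value for Trp53 was -0.08 (standard error 0.33, adjusted p = 0.87 from limma, but 0.86 with adjusted p = 0.020 after equalizing library sums, near the shift of the median gene to 0.81). Gene-level values cannot show the loss of single exons. The 8 endocrine cell markers, led by chromogranin A (Chga), summed to between 8070 and 17809 FPKM in the cancers and between 136 and 208 in the controls, and for 6 of the 8 all cancers lay above all controls. The 10 gastric gland markers summed to between 694 and 78716 in the cancers, against between 158537 and 240752 among controls, with 7 of the 10 below every control in every cancer. Cancer 1 had the lowest sum, and Atp4a, Atp4b, Gif, Muc5ac and Muc6 were listed at 0 there. The 8 squamous forestomach markers summed to between 1 and 1912 in the cancers, against between 2759 and 4699 among controls, with 4 of the 8 below every control in every cancer. In cancer 4, Krt5 (574 against 128 to 203), Krt14 (403 against 100 to 143) and Trp63 (21 against 7 to 11) were above every control. Ivl was above them in cancer 2 (9 against 3 to 4). Islet markers summed to at most 12 in the cancers (Slc30a8 at 12 in cancer 3) and to 0 in each control, with Ins1 and G6pc2 listed at 0 in every library. Adrenal medulla markers summed to at most 14 in the cancers and to 0 in each control, with Dbh and Pnmt listed at 0 in every library. Slc18a1, at 5, 2, 4, 3 and 12 in cancers 1 to 5, had all cancers above all controls, and Th was at 9, 8, 1, 0 and 0. The 10 enteric neuron markers summed to between 82 and 160 in the cancers, against between 10 and 11 among controls, and in the cancers most of it was Uchl1 (65 to 129 against 3 to 4). Ret (4 to 15 against 1) and Elavl4 (1 to 4 against 0) also had all cancers above all controls, whereas Phox2a and Chat were at 0 throughout, and the 5 enteric glia markers summed to at most 6. Exocrine pancreas markers summed to between 2 and 288 in the cancers, against between 70 and 92 among controls, most of it Cela1, with Cpa1, Prss2 and Amy2b at 0 throughout. Enterocyte markers summed to between 17 and 205 in the cancers, against between 311 and 490 among controls, with Sis, Lct, Cdx1 and Mep1a at 0 throughout. The 6 hepatocyte markers summed to 466 in cancer 5, to between 1 and 58 in the other cancers and to 1 in each control. In bulk tissue, fewer cells of a type and less RNA per cell cannot be told apart.

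The set of hormones differed between the groups. The controls had Ghrl and Sst as their abundant hormone transcripts. The cancers had Cck, with Gcg, Sct, Sst, Ghrl, Pyy, Nts and Gast at levels that varied by tumor. Of the 10 genes, 3 (Cck, Sct and Pyy) had all 5 cancers above all 3 controls and 1 (Ghrl) had all cancers below. Of the 14357 genes that reached 1 FPKM in 3 or more libraries, 14.4% lay above and 19.8% below in this sense. The summed FPKM was between 403569 and 573858 in the cancers, against between 887141 and 992550 among controls, and setting all library sums equal (TPM) moves the median log2 difference of all tested genes from -0.038 to 0.81. After that rescaling, under which 49.6% of tested genes lay above and 4.51% below, Gcg and Nts also lay above every control and Ghrl still lay below. For Nts this came from dividing the same rounded value of 1 FPKM by different library sums. All members but Gip, 9 of 10, passed that filter on low values.

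**Figure D1:**
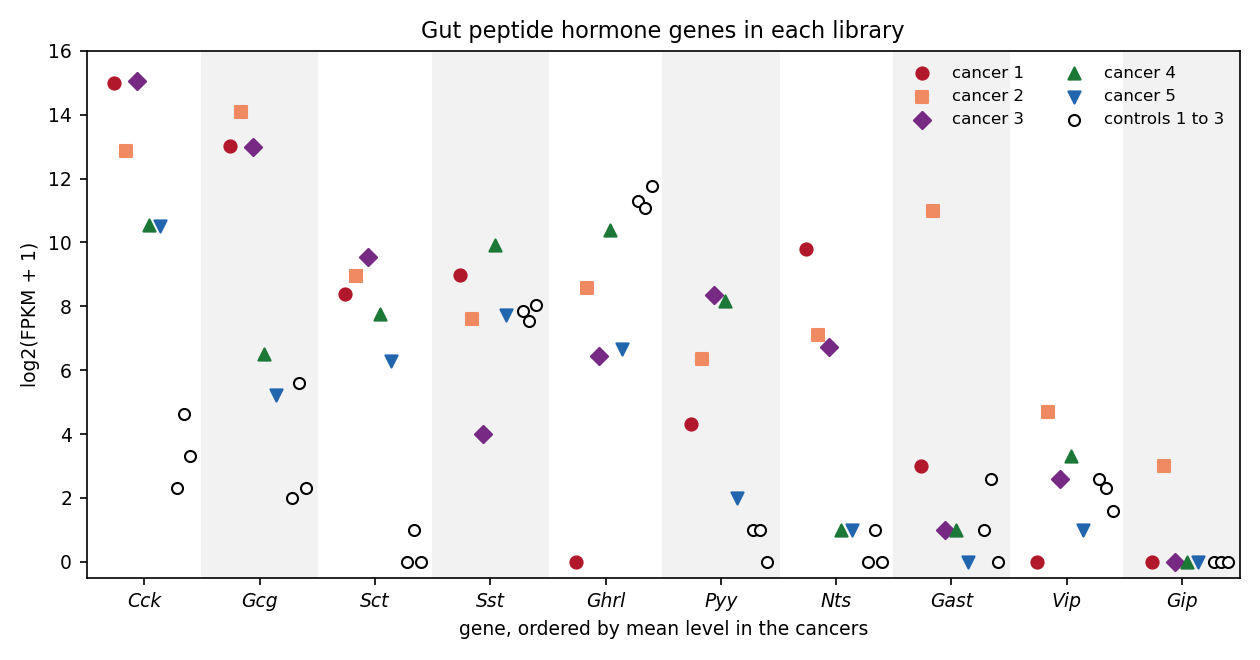
Level of each of the 10 gut peptide hormone genes in each library, on the log2(FPKM + 1) scale, with 1 colored symbol per cancer and open circles for the 3 controls. All 5 cancers lie above the controls for Cck, Sct and Pyy and below them for Ghrl, and cancers 1 to 3 stand apart from cancers 4 and 5 for Gcg and Nts.

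Cholecystokinin and gastrin form a family of peptides that share their C-terminal end, the part their receptors bind. Cck, encoding cholecystokinin (Entrez 12424, chromosome 9, 121489823 to 121495689, mm10, as the table gives the locus), had FPKM of 32719, 7438, 33979, 1507 and 1462 in cancers 1 to 5 and 4, 24 and 9 in controls 1 to 3. Even the lowest cancer was far above the highest control, with cancers 1 and 3 the highest, cancer 2 between and cancers 4 and 5 the lowest. Cck was the most abundant of all 23361 genes in cancers 1 and 3, where it made up 8.11% and 7.74% of the summed FPKM, and ranked 5 in cancer 2, 38 in cancer 4 and 22 in cancer 5. Its mean was 15421 ± 16551 (SD, n = 5) against 12.3 ± 10.4 (SD, n = 3), a difference of 9.37 on the log2(FPKM + 1) scale. Gast, encoding gastrin, the hormone that stimulates acid secretion (chromosome 11, 100334411 to 100336996), measured 7, 2032, 1, 1 and 0 FPKM across cancers 1 to 5 and 1, 5 and 0 across the controls. Cancer 2 alone carried it, at rank 22 of all genes in that library, and the other 4 cancers overlapped the controls. The log2 difference of Gast was 2.0 with cancer 2 and 0.055 without it.

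The secretin family includes secretin, the glucagon peptides, gastric inhibitory polypeptide and vasoactive intestinal peptide. Gcg (chromosome 2, 62474529 to 62483653) encodes proglucagon, which intestinal L cells cut to glucagon-like peptides and pancreatic alpha cells to glucagon. Its FPKM was 8250, 17443, 8054, 89 and 36 in the cancers, against 3, 48 and 4 among controls. Cancers 1 to 3 were above every other library, cancer 4 was above the controls, and cancer 5 lay below control 2, and the log2 difference between the group means was 7.04. Leaving out each library in turn gave 6.11 (without cancer 2) to 8.33 (without cancer 5). Gcg ranked 2, 3 and 3 among all genes in cancers 1, 2 and 3 and 830 in cancer 4, and the highest cancer exceeded the lowest 485-fold. Sct (chromosome 7, 141278337 to 141279131), encoding secretin, the hormone that triggers bicarbonate release from the pancreas, measured 334, 496, 739, 217 and 77 FPKM across cancers 1 to 5 and 0, 1 and 0 across the controls. It was the steadiest of the raised hormones, with a 9.60-fold range over the cancers, and its mean was 373 ± 256 (SD, n = 5) against 0.333 ± 0.577 (SD, n = 3), a log2 difference of 7.85. Gip (chromosome 11, 96024544 to 96030828), encoding gastric inhibitory polypeptide, which raises insulin release after a meal, was at 7 in cancer 2 and listed at 0 in the other 7 libraries. Vip (chromosome 10, 5639217 to 5647614) measured 0, 25, 5, 9 and 1 FPKM across cancers 1 to 5 and 5, 4 and 2 across the controls. The groups overlapped, and the log2 difference of 0.16 changed sign with a pseudocount of 0.1 (-0.42) and without cancer 2 (-0.44), cancer 4 (-0.093) or control 3 (-0.13), and was 0.75 after rescaling to equal sums. Of this family, Sct was thus above the controls in all 5 cancers and Gcg in 4, Gip was detected in cancer 2 alone, and Vip was highest in cancer 2.

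Peptide YY slows gut transit and is made together with proglucagon in intestinal L cells, and neurotensin is made by neighboring cells of the distal small intestine. Pyy (chromosome 11, 102106675 to 102107776) measured 19, 81, 323, 284 and 3 FPKM across cancers 1 to 5 and 1, 1 and 0 across the controls. Every cancer was above every control, but cancer 5 by 2 FPKM units only, and the order of the cancers was not that of Gcg, since cancer 4 was high for Pyy and low for Gcg. The log2 difference of Pyy was 5.17. Nts (chromosome 10, 102481755 to 102490418), encoding neurotensin, measured 895, 135, 104, 1 and 1 FPKM across cancers 1 to 5 and 0, 1 and 0 across the controls. Cancers 1 to 3 were above all controls, and cancers 4 and 5 were at the level of control 2, with a log2 difference of 4.79. That difference was 3.62 without cancer 1 and 6.94 with a pseudocount of 0.1. Ppy, the neighbor of Pyy in the same peptide family and not one of the 10, was at 33, 270, 836, 10 and 0 FPKM across the cancers and at 0, 1 and 0 across the controls (limma log2 fold change 4.93, SE 2.0, adjusted p = 0.091). The adjusted p of Ppy from limma was 0.024 without cancer 5 and 0.045 after rescaling to equal sums. Ppy was singled out after its values were seen.

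Ghrelin and somatostatin are the peptide hormones most abundant in the control SCJ. Ghrl (chromosome 6, 113716118 to 113719880), encoding ghrelin, the appetite-stimulating peptide of the oxyntic glands, measured 0, 381, 86, 1330 and 100 FPKM across cancers 1 to 5 and 2526, 2160 and 3471 across the controls. Every cancer was below every control, with a mean of 379 ± 550 (SD, n = 5) against 2719 ± 676 (SD, n = 3), a log2 difference of -4.97. Without cancer 1, in which Ghrl was listed at 0, the log2 difference was -3.37. A listed 0 can be a failed estimate in this table, since Pgc, a pepsinogen gene, was at 28832 in control 1 and at 0 in controls 2 and 3. Gastric gland markers, given above, moved with Ghrl, and their part in the result was not tested. As a percent of the summed FPKM of 9 gland markers (the list without Pgc), Ghrl was 0, 0.514, 1.58, 2.73 and 0.618 in the cancers, against 1.19, 1.36 and 1.54 among controls. On that scale the groups overlapped, with cancers 3 and 4 above the controls and cancers 1, 2 and 5 below them. The ratio of Ghrl to Atp4b alone was 0.632, 0.811, 0.996 and 2.44 in cancers 2 to 5, against 1.09, 0.553 and 0.968 among controls. By that ratio cancers 2 to 4 lay within the controls and cancer 5 above them, so the placement depended on the denominator. Atp4b was listed at 0 in cancer 1, so no ratio is given there.

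Sst (chromosome 16, 23889580 to 23890844), encoding somatostatin, the peptide that restrains the other endocrine cells, measured 505, 194, 15, 963 and 211 FPKM across cancers 1 to 5 and 232, 186 and 263 across the controls. The controls lay within a 1.41-fold range and the cancers within a 64.2-fold range on both sides of it. The log2 difference was -0.17, and it changed sign after rescaling to equal sums (0.79), after quantile normalization (0.27) and without cancer 3 (0.74). As a percent of the same gland marker sum, Sst was 73.1, 0.262, 0.276, 1.97 and 1.30 in the cancers, against 0.109, 0.117 and 0.117 among controls. Relative to the sum of gland markers every cancer was thus above every control for Sst, whereas for Ghrl the groups overlapped. The marker sum itself was between 691 and 74170 in the cancers, against between 158537 and 224870 among controls. A gene at a like level in both groups therefore rises on this scale, so the Sst ratio is no separate result. The ratios to gland markers were computed after the levels had been seen.

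**Figure D2:**
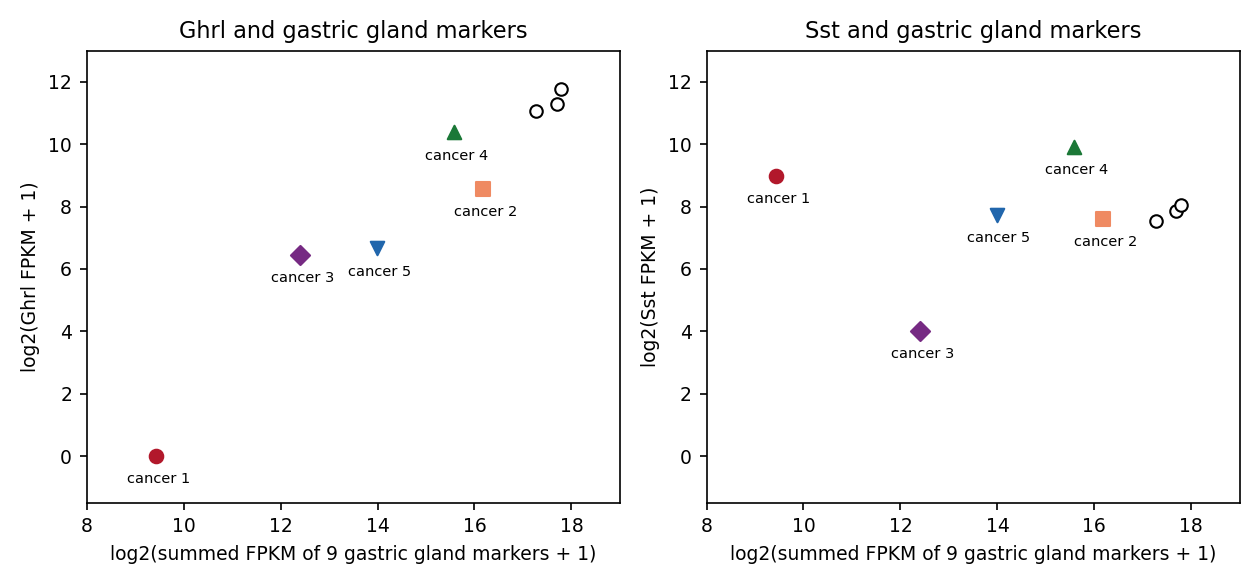
Ghrl (left) and Sst (right) against the summed FPKM of 9 gastric gland markers in each library, both axes on the log2(value + 1) scale, with colored symbols for the 5 cancers and open circles for the 3 controls. Ghrl runs from 0 in cancer 1, which has the lowest marker sum (691 FPKM), to its highest values in the controls, whereas Sst in cancers 1 and 4 is above the controls at lower marker sums.

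The levels were ordered on the mean log2(FPKM + 1). In the controls Ghrl (11.38 ± 0.35, SD, n = 3) came first and Sst (7.82 ± 0.25) second, and the gaps from Ghrl to Sst and from Sst to Cck (3.43 ± 1.16) exceeded the larger SD of each pair. From Cck down to Gcg, Vip, Gast, Pyy, Sct, Nts and Gip no gap between neighbors exceeded it. In the cancers the order was Cck (12.80 ± 2.24, SD, n = 5), Gcg, Sct, Sst, Ghrl, Pyy, Nts, Gast, Vip and Gip. The gap from Cck to Gcg was 2.44 against an SD of 4.16 for Gcg, and from Vip to Gip 1.72 against 1.86 for Vip. No neighbors in the cancers differed by more than the larger SD.

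The make-up of hormone RNA was compared within each library. The 10 genes summed to 42729, 28232, 43306, 4401 and 1891 FPKM in cancers 1 to 5 and to 2772, 2430 and 3749 in the controls. Cancers 1 to 4 were above the controls in this sum and cancer 5 was below controls 1 to 3. These sums were 10.6%, 4.92%, 9.87%, 0.786% and 0.424% of the whole library in the cancers, against 0.290%, 0.274% and 0.378% among controls. As a share of the library all 5 cancers, cancer 5 included, were thus above all controls, so the direction for cancer 5 turned with the scaling. Cck took 76.6%, 78.5% and 77.3% of the hormone sum in cancers 1, 3 and 5, and 34.2% in cancer 4. In cancer 2 Gcg led with 61.8%, followed by Cck with 26.3% and Gast with 7.20%. Cancer 4 was the most mixed, with Ghrl at 30.2%, Sst at 21.9%, Pyy at 6.45% and Sct at 4.93% beside Cck. In the controls Ghrl took 91.1%, 88.9% and 92.6% and Sst 8.37%, 7.65% and 7.02%.

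**Figure D3:**
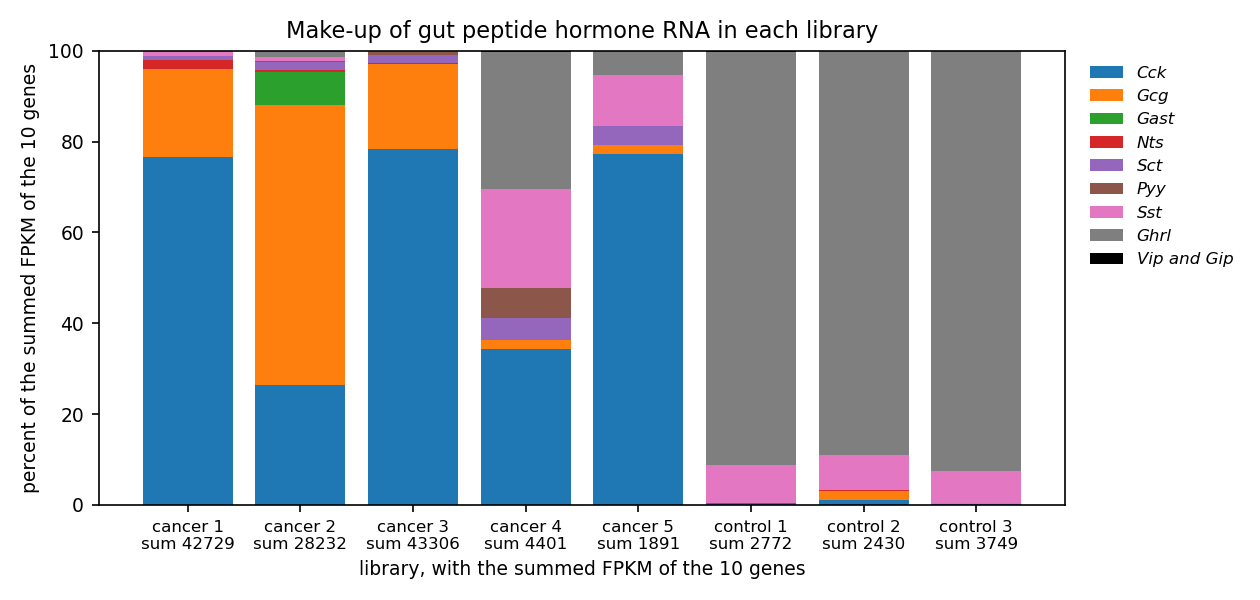
Percent of the summed FPKM of the 10 hormone genes taken by each gene in each library, as stacked bars from 0 to 100, with the sum under each bar. Cck is the largest part of cancers 1, 3, 4 and 5 and Gcg of cancer 2, while Ghrl fills 88.9% to 92.6% of the controls.

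The hormones were also set against Chga, which marks most endocrine cells. The summed hormone FPKM was 5.95, 8.69, 4.0, 0.346 and 0.147 times that of Chga in cancers 1 to 5 and 25.7, 16 and 28 times in the controls. Per unit of Chga, every cancer thus had less hormone RNA than every control. Among the 8 endocrine markers this held for 4 (Chga, Chgb, Scg2 and Scg3, all granule proteins), and for the other 4 (Scgn, Syp, Syt7 and Rab3c) the groups overlapped. Against Syp, a vesicle protein, the ratio was 515, 689, 585, 119 and 21.7 in cancers 1 to 5 and 693, 347 and 375 in the controls, and against Syt7 cancers 1 to 3 exceeded every control. The ratios to markers other than Chga were added after the levels had been seen. Chga was at 7185, 3247 and 10826 FPKM in cancers 1 to 3 and at 12715 and 12837 in cancers 4 and 5. Chgb was instead lower in cancers 4 and 5, at 7002, 4256 and 5738 in cancers 1 to 3 and 1725 and 2272 in cancers 4 and 5. The part that endocrine cell number plays in these levels was not tested. The ratio of Cck to Chga was 4.55, 2.29, 3.14, 0.119 and 0.114 in the cancers, against 0.037, 0.158 and 0.067 among controls, so that cancers 4 and 5 lay within the range of the controls. For Sst the ratio was between 0.0014 and 0.0757 in the cancers, against between 1.22 and 2.15 among controls, and for Ghrl at most 0.117 against at least 14.2.

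Hormone levels varied widely among the cancers. The SD of log2(FPKM + 1) over the 5 cancers was 4.49 for Gast, 4.16 for Gcg, 3.95 for Nts, 3.92 for Ghrl, 2.69 for Pyy, 2.25 for Sst, 2.24 for Cck, 1.86 for Vip and 1.25 for Sct. The median over these 9 genes was 2.69, and over all 14357 genes tested 0.411. For each of the 9, at least 94.9% of the tested genes had a smaller SD. The set was chosen from its levels in these same cancers, so these ranks describe it and are not a test. The genes that process hormones were less variable, with a median SD of 0.799 over 11 genes, and Chga had 0.836. Other peptide hormones had a median SD of 1.26 over 18 genes and a highest of 3.83, so a wide spread was not confined to these genes. In the controls the median SD was 0.577 over the 9 hormones and 0.222 over all tested genes.

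Profiles were compared by dividing each gene by its sum over the 8 libraries and adding up the smaller of the 2 shares in each library, so that 100% means the same distribution. Among the hormones Cck and Sct overlapped by 71.1%, Sct and Gcg by 68.7%, Sct and Pyy by 65.8% and Cck and Nts by 61.4%. The lowest overlaps were of Gast with Ghrl (4.18%), Ghrl with Nts (4.91%) and Ghrl with Gcg (5.18%). Among 5604 other genes that reached 20 FPKM in a library, the nearest to Cck were Tff3 (92.1%), Tm4sf4 (91.9%) and Tmem100 (90.2%), where the median gene had 33.0%. Tff3 encodes a trefoil peptide of mucous cells and was at 47, 10, 51, 4 and 1 FPKM in the cancers, against 3, 1 and 4 among controls. Nearest to Gcg were Necab2 (92.4%), Abcc8 (83.4%), which encodes the sulfonylurea receptor of endocrine cells, and Tac1 (80.2%), the precursor of substance P. Nearest to Gast, and like it nearly confined to cancer 2, were Pla2g2a (99.5%), Mir3960 (99.3%) and Nkx6-3 (98.3%), a homeobox gene of the gastric antrum that was at 55 FPKM in cancer 2 and at most 1 elsewhere. Nearest to Nts were Npy (90.7%), Scd1 (87.6%) and Pou2af1 (87.5%), each highest in cancer 1. Nearest to Ghrl were Fabp3 (93.2%), Npw (93.1%) and 1810010D01Rik (92.8%). Nearest to Vip were Pdlim3 (88.9%), Myh11 (86.1%) and Mylk (85.9%), of which Myh11 encodes the myosin heavy chain of smooth muscle. Myh11 was at 2, 155, 36, 25 and 7 FPKM over the cancers and at 31, 50 and 31 over the controls, and, like Vip, was highest in cancer 2. Nearest to Sct were Cryba2 (85.3%), Kcnk2 (84.3%) and Gm1673 (84.3%), and to Pyy Ache (81.2%), Msc (78.3%) and Grem1 (77.8%). Sst had no close companion, with 79.1% for 5730408K05Rik, 77.9% for Ogt and 77.8% for Igfbp3 where the median gene had 62.8%.

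Other genes of the pathway were tested across all 14357 genes with limma on the log2(FPKM + 1) scale, calling an adjusted p (Benjamini-Hochberg) under 0.05. Of all tested genes 34.5% were called (16.2% raised and 18.3% lowered in cancer), with a median log2 fold change of -0.038. After rescaling to equal sums 7176 were higher and 528 lower, against 2326 and 2622. Of the 5 lists, hormone maturation had the largest share of called genes (90.9%). Of its 12 genes 11 were tested, and 9 rose and 1 fell, with a median log2 fold change of 3.51. Pcsk1, the prohormone convertase that cuts proglucagon to glucagon-like peptides, measured 475, 171, 566, 310 and 707 FPKM across cancers 1 to 5 and 2, 3 and 1 across the controls (limma log2 fold change 7.12, SE 0.47, adjusted p = 0.00036). Pcsk2, the convertase that releases glucagon, had 158, 182, 96, 169 and 280 against 1 in each control (limma log2 fold change 6.39, SE 0.30, adjusted p = 0.00013). Scg5, which encodes the chaperone of that convertase, had 1156, 509, 812, 994 and 2325 against 9, 6 and 6 (limma log2 fold change 7.02, SE 0.45, adjusted p = 0.00033). All 5 cancers lay above the controls for these 3 genes, including cancers 4 and 5, whose hormone sums were the lowest among the cancers. Further genes were named after their values were seen. Pam, which amidates cholecystokinin, gastrin and secretin among others, rose by a log2 fold change of 3.26 (adjusted p = 0.0023 from limma). Tpst2, a sulfotransferase for the tyrosines of cholecystokinin and gastrin, rose by 2.45 (adjusted p = 0.0018 from limma). Qpct, which forms the modified N terminus of neurotensin and gastrin, rose by 3.51 (adjusted p = 0.0058 from limma). Mboat4, the enzyme that acylates ghrelin, was the 1 gene called lower, at 1 in cancer 4 and each control and 0 in the other cancers (adjusted p = 0.045 from limma). The Mboat4 call was lost without cancer 1, 2, 3 or 5 or any control (adjusted p between 0.070 and 0.12 from limma), after rescaling to equal sums (0.15) and without the filter on low values (0.051).

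Receptors of the 10 hormones were called in both directions. Of 23 genes 14 were tested, and 4 rose and 3 fell, which is 50% of those tested. The median log2 fold change was 0.27, and -0.96 leaving out the 5 genes that 1 whole group lists at 0. Sstr3, a somatostatin receptor, measured 37, 16, 30, 13 and 22 FPKM across cancers 1 to 5 and was listed at 0 in the controls (adjusted p = 0.00044 from limma). Sstr1 had 23, 4, 11, 6 and 4 and was also listed at 0 in the controls (adjusted p = 0.0049 from limma). Cckar, the receptor with preference for cholecystokinin over gastrin, measured 0, 2, 0, 9 and 2 FPKM across cancers 1 to 5 and 24, 47 and 36 across the controls (limma log2 fold change -3.85, SE 0.75, adjusted p = 0.0086). Every cancer lay below every control for Cckar, as for 19.8% of all tested genes. Gastric gland markers, given above, were lower in the cancers too, and their part in the lowered receptors was not tested. The other 4 calls were named after their values were seen. Sstr2, at 1, 2, 1, 2 and 1 against 6, 8 and 14, fell by 2.06 on the log2 scale (adjusted p = 0.0028 from limma), so that somatostatin receptors were called in both directions. Sctr, the secretin receptor, had 0, 6, 0, 6 and 4 against 25, 16 and 31 (limma log2 fold change -3.01, adjusted p = 0.024, but 0.080, 0.056 and 0.085 without control 1, 2 or 3 and 0.079 with a pseudocount of 0.1). Vipr1, a receptor of vasoactive intestinal peptide, had 38, 6, 18, 12 and 26 against 1, 2 and 1 (limma log2 fold change 2.96, adjusted p = 0.0062). Gipr had 5, 3, 18, 2 and 1 and was listed at 0 in the controls (adjusted p = 0.033 from limma, and between 0.065 and 0.097 without cancer 1 or any control and after quantile normalization). The receptors Ghsr, Npy2r, Ntsr1, Ntsr2 and Glp2r, for ghrelin, peptide YY, neurotensin and glucagon-like peptide, were among 7 listed at 0 in every library.

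Transcription factors of endocrine cells were mostly higher in the cancers. Of 26 genes 19 were tested, and 13 rose and 0 fell (68.4% called). The median log2 fold change was 2.59, and 0.82 leaving out the 9 genes that 1 whole group lists at 0. Pax6, which activates proglucagon transcription, measured 121, 31, 82, 34 and 50 FPKM across cancers 1 to 5 and was listed at 0 in the controls (adjusted p = 0.00054 from limma). Neurod1, a basic helix-loop-helix factor of enteroendocrine cells that make secretin and cholecystokinin, had 53, 25, 90, 34 and 57 and was listed at 0 in the controls (adjusted p = 0.00036 from limma). Etv1, an ETS family factor, had 107, 27, 115, 60 and 77 against 1 in each control (limma log2 fold change 5.13, SE 0.44, adjusted p = 0.00078). These 3 were present in all 5 cancers, also where Gcg and Nts were low.

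**Figure D4:**
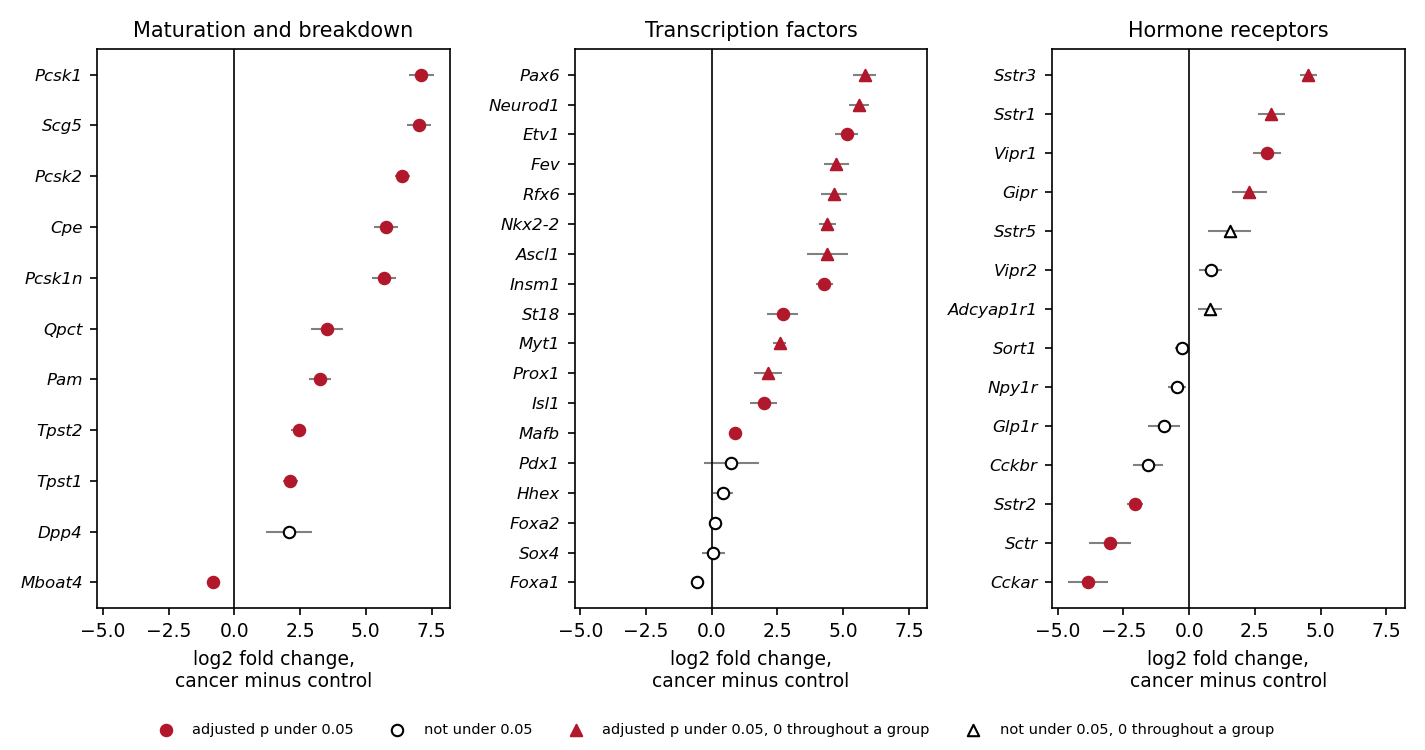
Log2 fold change (cancer minus control, limma on the log2(FPKM + 1) scale) of tested genes of the maturation, transcription factor and receptor lists, with bars for 1 standard error. Filled symbols have an adjusted p under 0.05, and triangles are genes listed at 0 throughout a group, for which the size depends on the pseudocount. Raised genes number 9 among maturation genes, 13 among transcription factors and 4 among receptors, where 3 others are lowered.

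Of 20 nutrient and chemical sensors, receptors through which enteroendocrine cells detect food, 15 were tested, and 5 rose and 1 fell. The 40% called is near the 34.5% of all tested genes only with both directions pooled, since 16.2% of all tested genes rose and 18.3% fell. Without control 1, 5 of 15 sensors were called, against 2490 of 14253 genes. The counts raised and lowered were 9 and 0 after rescaling to equal sums, where most called genes were higher, and 5 and 3 after quantile normalization. The median log2 fold change was 1.55, and 0.37 leaving out the 5 genes that 1 whole group lists at 0. Ffar2, a short-chain fatty acid receptor, measured 12, 6, 18, 23 and 26 FPKM across cancers 1 to 5 against 1 in each control (limma log2 fold change 3.02, SE 0.43, adjusted p = 0.0029). Trpa1, an irritant-gated channel, had 10, 3, 17, 7 and 7 against 1, 0 and 0 (limma log2 fold change 2.79, SE 0.48, adjusted p = 0.0055). Casr, the calcium-sensing receptor, had 4, 2, 2, 2 and 8 and was listed at 0 in the controls (adjusted p = 0.0074 from limma). The cancers lay above the controls for all 3.

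Peptide hormones and neuropeptides beyond the 10 changed in a share near that of all genes when both directions were pooled. Of all tested genes 16.2% rose and 18.3% fell. Of 32 genes 18 were tested, and 5 rose and 2 fell (38.9% called), while 11 were listed at 0 in every library. After rescaling to equal sums 7 rose and 1 fell, and after quantile normalization 3 rose and 2 fell. The median log2 fold change was 1.21, and 1.16 leaving out the 3 genes that 1 whole group lists at 0. Pdyn, the precursor of dynorphin opioid peptides, measured 203, 386, 3, 77 and 201 FPKM across cancers 1 to 5 and 0, 1 and 0 across the controls (limma log2 fold change 6.11, SE 1.4, adjusted p = 0.015, and 0.058 and 0.055 without control 1 or 3). Nmu, encoding neuromedin U, had 0, 0, 0, 1 and 2 against 14, 24 and 12 (limma log2 fold change -3.57, SE 0.44, adjusted p = 0.0019). Npw, encoding neuropeptide W, had 0, 8, 4, 23 and 2 against 32, 41 and 55 (limma log2 fold change -3.08, SE 0.92, adjusted p = 0.036), and its adjusted p reached 0.115 over the alternatives. Npw was also among the genes nearest to Ghrl in profile.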

How the data were processed

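RNA of 5 cancers and 3 control tissues was sequenced from polyA-selected directional libraries, per the labels. The authors trimmed reads with cutadapt 1.8, aligned them with TopHat2 2.0.13 and computed FPKM with Cuffnorm 2.2.1 on mm10, per the submitters' processing notes. The deposited FPKM are rounded to whole numbers and were treated as a score, not as counts (100% of values were whole), so sequencing depth is unknown, no counting interval is given and low genes have few steps. Cuffnorm rescales libraries by an option that is not given in the sources used here.

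Members were matched by symbol. Genes with at least 1 FPKM in at least 3 libraries (14357 of 23361) were fitted on log2(FPKM + 1) with limma 3.58.1 in R 4.3.3 (eBayes with trend, Benjamini-Hochberg adjustment, threshold 0.05), and the fit was tested on simulated data. The members, gene lists and tests were chosen with earlier results of these data known. Named genes were all 10 members, up to 3 called genes of each list with the largest change, and the 3 genes nearest to each member in profile. A further 9 were named after their values were seen. Some members of the lists and markers are counted but not reported by name here. Of 202 list entries 202 were matched, 1 by an older symbol. Promoter sequences came from RefSeq (GRCm38.p6), which matched 10 of 10 members. Alternatives were a pseudocount of 0.1, no filter, a mean of at least 5, TPM, quantile normalization, eBayes without trend, a replicate block, and leaving out each library.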

Additional observations from a re-analysis of the deposited data

Results flagged for a closer look

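In 36 groups of 5 cancers, 3 had 1 library far from the rest, judged by its gap to the nearest value as a share of the group's range on the log2(FPKM + 1) scale against a critical value of 0.71, where chance would flag about 1.8 if values were continuous. Gast and Gip were chosen from these values, so their gaps are a description, and for Gip and Mboat4 ties at 0 fix the gap share. Gast stood apart in cancer 2 (gap share 0.727), at 2032 FPKM against at most 7 in the other cancers. Gip stood apart in cancer 2 (gap share 1), at 7 FPKM against 0 in the other cancers. Mboat4 stood apart in cancer 4 (gap share 1), at 1 FPKM against 0 in the other cancers, a difference of a single step of the rounded values.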

How the results depend on the processing

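Each result was recomputed under up to 15 alternatives. Rescaling each library to an equal sum (TPM) raised the number of called genes from 4948 to 7704 (7176 higher and 528 lower, against 2326 and 2622), and moved the median gene to 0.81 on the log2 scale. Trp53 then reached 0.86, a called increase (limma adjusted p = 0.020), and was 0.13 with quantile normalization, both opposite in sign to the value reported. Leaving out each library in turn gave 2490 to 5252 called genes, the lowest without a control (2490, 2643 and 2815 without controls 1, 2 and 3), 4 to 8 other peptide hormones, 5 to 10 sensors and -0.29 to 0.027 for Trp53. The 10 sensors were without cancer 4 and the 4 peptide hormones without control 1 or 3. A mean FPKM of at least 5 left 3 called sensors, of 5 tested. With a pseudocount of 0.1 the log2 difference of Sct was 10.35, against 7.85. Over the alternatives the maturation list had 9 to 11 calls, against 10, and the transcription factor list 9 to 15, against 13.

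Groups share the numbers 1 to 3, but same-numbered libraries did not deviate together (correlations of -0.021, -0.19 and -0.10). This cannot exclude a pairing, since the controls came from age-paired mice and large differences among the cancers could hide it. A replicate block, in which cancers 4 and 5 form blocks of their own and add nothing to the contrast, left 1534 called genes, 3 other peptide hormones and 2 receptors. Under the block the limma adjusted p of Pdyn (0.098), Npw (0.065), Sctr (0.099), Vipr1 (0.093), Gipr (0.065), Trpa1 (0.066), Sstr1 (0.053) and Sstr2 (0.056) missed the threshold. Depth is unknown, and a value of 0 may be a failed estimate.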
